A study of Homo sapiens with 18 samples.

Results

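Keratins are the intermediate filament proteins of epithelial cells, and 10 keratin genes among the 61487 gene identifiers of the count table were followed here: KRT7, KRT8, KRT14, KRT16, KRT17, KRT18, KRT19, KRT34, KRT80 and KRT81. They were chosen by name around KRT17, which had been seen raised with 3 of the fusions in these same libraries, so the KRT17 levels of those fusions against the other groups are given as a description with no test. The 18 libraries came from MSC-hTERT, human mesenchymal stem cells immortalized with telomerase, grown in serum with FGF-2, ascorbic acid and heparin. They form 6 groups of 3 libraries, numbered 1 to 3, named for what the cells expressed: pMSCV, SRF, SRF-PDGFRB, SRF-RELA, SRF-ICA1L and SRF-FOXO1. pMSCV is the name of a retroviral vector and was treated as the control. The transcription factor SRF (serum response factor) is given alone or fused to PDGFRB, RELA, ICA1L or FOXO1. The labels do not say whether the libraries of a group came from separate cultures or what a replicate number marks, so p-values measure only the spread between these libraries, which may be technical.

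A keratin filament is built from pairs of an acidic type I and a basic type II chain, so cells usually express both types together. KRT8 (type II) and KRT18 (type I) are the pair of simple epithelia, KRT7 (type II) and KRT19 (type I) accompany them in ducts and glands, and KRT14 (type I) is the chain of basal skin cells. KRT16 and KRT17 (type I) are known for their induction in stressed and wounded skin, KRT34 (type I) and KRT81 (type II) are hair keratins, and KRT80 is a type II chain of several epithelia. Mesenchymal cells rely mainly on vimentin (VIM), which stood at 2865 ± 228 CPM (CPM, a gene's counts scaled to a fixed library total; mean ± SD, n = 3) in pMSCV.

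Total counts ran from 19362319 to 29806771 per library, so that 3 counts, read here as the limit that a count of 0 allows, amount to 0.101 to 0.155 CPM. Intervals and limits from counts cover counting error only. The construct genes were raised in the groups named for them, with SRF at 60.96 ± 3.56 CPM in pMSCV and at means from 182 CPM (SRF-FOXO1) to 945 CPM (SRF), except that FOXO1 was at 9.79 ± 3.99 CPM in the libraries labelled SRF-FOXO1 and at 12.6 ± 4.27 CPM in pMSCV. For that reason each direction below for SRF-FOXO1 refers to the libraries so labelled. The 8 mesenchymal stromal markers summed to between 16534 and 42149 CPM in the 18 libraries. The 12 epithelial and keratinocyte markers summed to between 30.3 and 49.6 CPM, most of it KRT10, while KRT5 and GRHL2 were at 0 counts in every library. The sums of the 4 mesothelial, 4 haematopoietic and 3 endothelial markers reached at most 2.43, 4.09 and 28.4 CPM. In bulk RNA, more cells with a keratin and more keratin RNA per cell cannot be told apart.

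Keratin genes are close relatives, so the sequences show how far reads can tell them apart. KRT17 lies on the minus strand of chromosome 17 (chr17:41619441-41624842, GRCh38, GENCODE release 29), and its relatives KRT16 (chr17:41609778-41615899) and KRT14 (chr17:41582279-41586921) lie close by on the same strand. Their coding sequences are 84.8% (KRT17 and KRT14), 79.6% (KRT17 and KRT16) and 87.8% (KRT14 and KRT16) identical over the aligned bases. Shown first is the 75-base window of exon 1 coding sequence in which the 3 genes are most alike, with the bases that differ from KRT17 in capitals.
KRT17 (chr17:41624188-41624262): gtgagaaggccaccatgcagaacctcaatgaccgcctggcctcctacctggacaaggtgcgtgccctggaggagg
KRT14 (chr17:41586420-41586494): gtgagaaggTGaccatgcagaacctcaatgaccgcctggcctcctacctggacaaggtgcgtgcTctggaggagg
KRT16 (chr17:41612268-41612342): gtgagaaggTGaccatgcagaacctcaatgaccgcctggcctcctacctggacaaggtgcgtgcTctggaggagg
In this window KRT14 and KRT16 each differ from KRT17 at 3 bases, and their sequences are the same as each other. The next window, also in exon 1, is the one in which they are least alike.
KRT17 (chr17:41624085-41624159): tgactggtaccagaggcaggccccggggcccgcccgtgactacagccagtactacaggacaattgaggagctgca
KRT14 (chr17:41586317-41586391): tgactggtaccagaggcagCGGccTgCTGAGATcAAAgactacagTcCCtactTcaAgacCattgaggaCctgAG
KRT16 (chr17:41612165-41612239): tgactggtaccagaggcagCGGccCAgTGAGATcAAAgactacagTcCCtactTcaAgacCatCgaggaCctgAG
Here KRT14 differs from KRT17 at 23 bases and KRT16 at 24. A read within the first window cannot tell KRT14 from KRT16, and it tells them from KRT17 only where it covers 1 or more of those 3 bases.

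The share of 50-base stretches of a transcript that also occur in another keratin gene or keratin pseudogene was 17.4% for KRT17, of which the pseudogene KRT17P1 alone accounted for 10.2%. It was 44.6% for KRT81, 41.3% for KRT8, 31.8% for KRT18, 23.8% for KRT14, 22.0% for KRT16 and 11.4% for KRT34, and under 2% for KRT7, KRT19 and KRT80. How the authors' counting treated reads that match several genes is not given in the sources used here, so values of the genes with large shares are uncertain to that extent. KRT8 and KRT18 also share 525 exonic bases on opposite strands of chromosome 12, and whether the counting used strand is not given either.

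KRT17 was present at a few counts in the control cells and at up to 37.7 CPM with the fusions to RELA, ICA1L and FOXO1. In pMSCV the 3 libraries held 0.389, 0.344 and 0.139 CPM (replicates 1, 2 and 3). In SRF they held 0.297, 0.306 and 0.903 CPM. In SRF-PDGFRB they held 0.522, 0.343 and 0.620 CPM. These 9 libraries overlap, and none reached 1 CPM.

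With the fusions to FOXO1, ICA1L and RELA each library was above all 9 of those. KRT17 stood at 3.79, 30.8 and 11.8 CPM in SRF-FOXO1. It stood at 7.05, 31.7 and 11.4 CPM in SRF-ICA1L. It stood at 5.37, 37.7 and 7.73 CPM in SRF-RELA. Replicate 2 was the highest and replicate 1 the lowest library in each of these 3 groups. The order of the group means was SRF-RELA (16.9 ± 18.02 CPM), SRF-ICA1L (16.7 ± 13.2), SRF-FOXO1 (15.5 ± 13.9), SRF (0.502 ± 0.347), SRF-PDGFRB (0.495 ± 0.140) and pMSCV (0.291 ± 0.134), and neighbours in that order overlapped except between SRF-FOXO1 and SRF. As a description, with no test, the fit put KRT17 above pMSCV by 5.85 on the log2 scale with SRF-FOXO1, 5.98 with SRF-ICA1L and 5.94 with SRF-RELA (SE 1.10 each). The same values were 0.84 (SE 1.26) for SRF alone and 0.74 (SE 1.28) for SRF-PDGFRB. Within one replicate number, the ratio of KRT17 to pMSCV ran from 9.73 (SRF-FOXO1, replicate 1) to 109.6 (SRF-RELA, replicate 2).

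**Figure D1:**
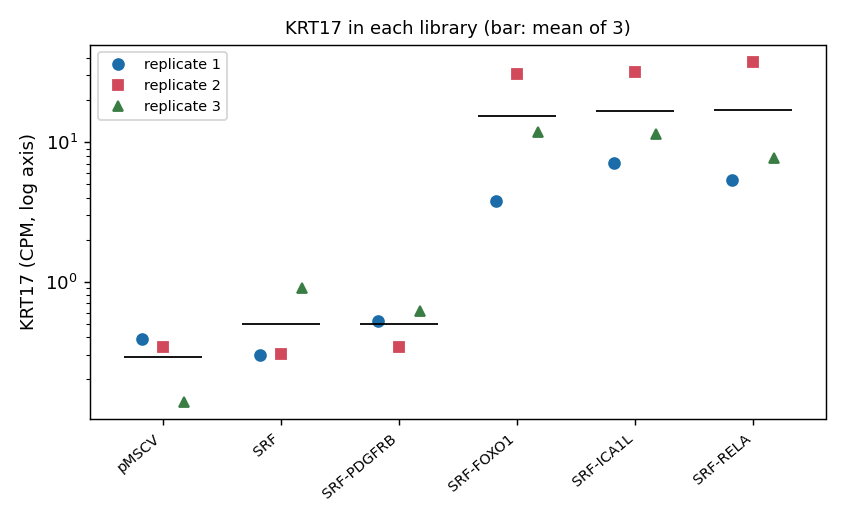
KRT17 in CPM on a log axis for the 18 libraries, by group, with the replicate number as the symbol and the mean of 3 as a bar. The libraries of pMSCV, SRF and SRF-PDGFRB lie at 0.903 CPM or below, and those of SRF-FOXO1, SRF-ICA1L and SRF-RELA at 3.79 CPM or above, with replicate 2 highest in each of the latter.

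How far the 3 fusions with high KRT17 differ from each other was not used in the choice and was tested. The log2 difference was -0.13 (SE 0.80, approximate 95% interval -1.69 to 1.43, edgeR adjusted p 0.993) between SRF-FOXO1 and SRF-ICA1L. It was -0.09 (interval -1.65 to 1.47, edgeR adjusted p 0.974) between SRF-FOXO1 and SRF-RELA and 0.04 (interval -1.52 to 1.60, edgeR adjusted p 1.00) between SRF-ICA1L and SRF-RELA. A 2-fold difference in either direction lies within each interval. With the replicate number as a block (a fit that compares libraries of one number with each other), the interval between SRF-FOXO1 and SRF-ICA1L was -1.19 to 0.68, and no difference was called.

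The KRT17 pseudogenes moved beside it at far lower levels. KRT17P1 had no count in pMSCV, SRF or SRF-PDGFRB, and 0.222, 0.806 and 0.125 CPM in SRF-RELA. KRT17P2 likewise had no count in those 3 groups and 0.0888, 0.666 and 0.292 CPM in SRF-RELA. Their part in the KRT17 counts was not tested.

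The other 9 keratins were asked the same question by test, since only KRT17 was named for its rise. The set was chosen with earlier results of these data known, so these tests may not be free of that choice. KRT16 and KRT19 were too low to enter the test, and 7 were tested: KRT7, KRT8, KRT14, KRT18, KRT34, KRT80 and KRT81. Without the block, 0 of these 7 were called against pMSCV at an edgeR adjusted p under 0.05 in any of the 5 constructs. The share of all 18544 tested genes called was 0.027% for SRF, 0.0324% for SRF-PDGFRB, 0.183% for SRF-RELA, 0.469% for SRF-ICA1L and 0.928% for SRF-FOXO1. At an unadjusted edgeR p under 0.05 there were 5 of 7 in SRF-FOXO1, 1 in SRF-ICA1L and 0 in the other 3, and DESeq2 called 1 in SRF-FOXO1 (KRT14) and 0 in the other 4. The shares of all genes at an unadjusted edgeR p under 0.05, or called by DESeq2, are not given here. Such counts, here and below, therefore cannot be set against a background. The median log2 fold change of the 7 was highest for SRF-FOXO1 (1.54), followed by SRF-RELA (0.59), SRF-ICA1L (0.50), SRF-PDGFRB (0.39) and SRF (0.22), where the median of all tested genes lay within 0.02 of 0.

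Libraries of one replicate number shared much of this spread. For KRT7, KRT8, KRT18, KRT80 and KRT81, replicate 1 was the lowest of the 3 libraries in 6 of 6 groups, and for KRT81 replicate 2 was the highest in 6 of 6. With the replicate block, 6 of the 7 were called higher in SRF-FOXO1 against pMSCV (KRT7, KRT8, KRT14, KRT18, KRT80 and KRT81), beside 4.65% of all tested genes called higher. The call of KRT14 among them is no support, for the reason given with that gene below. In SRF-ICA1L 2 of 7 were called higher (KRT18 and KRT80), beside 3.26% of all genes. With the block 0 of 7 were called in SRF-RELA, SRF-PDGFRB and SRF, where 2, 1 and 2 of them had an unadjusted edgeR p under 0.05 and where 0.971%, 0.178% and 0.243% of all genes were called. The summed epithelial markers were higher beside these calls: the 12 summed to between 41.7 and 49.6 CPM in SRF-FOXO1 and between 30.6 and 34.7 CPM in pMSCV, with KRT5, KRT1 and GRHL2 at 0 counts in SRF-FOXO1. Most of that gap was the keratin KRT10 (means of 33.2 and 24.7 CPM), and another of the 12, the tight junction gene CLDN4, had the lower mean in SRF-FOXO1 (3.75 against 4.74 CPM). Counts of the scarcer CDH1 and DSG3 were higher in SRF-FOXO1 than in pMSCV, while EPCAM, SFN and ESRP1 of the 12 are not given here. The cadherin CDH1 summed to 43 counts for SRF-FOXO1 and 1 for pMSCV, a ratio of 44.9 (95% counting interval 7.64 to 1815). SRF-ICA1L had 26 CDH1 counts and SRF-RELA 16. The desmosome gene DSG3 summed to 101 counts for SRF-FOXO1, 87 of them from replicate 2, and 5 for pMSCV. The 8 mesenchymal stromal markers summed to between 17980 and 29039 CPM in SRF-FOXO1 and between 16534 and 19733 CPM in pMSCV, ranges that overlap. The 4 mesothelial markers summed to between 0.416 and 2.43 CPM in SRF-FOXO1 and between 0.142 and 0.473 CPM in pMSCV. Their part in the keratin levels was not tested. None of the 7 was called lower in a construct against pMSCV or in a fusion against SRF, with or without the block. The share of all genes called lower is not given here. In the rest of the 15 comparisons between groups, higher or lower depends on which fusion is named first.

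**Figure D2:**
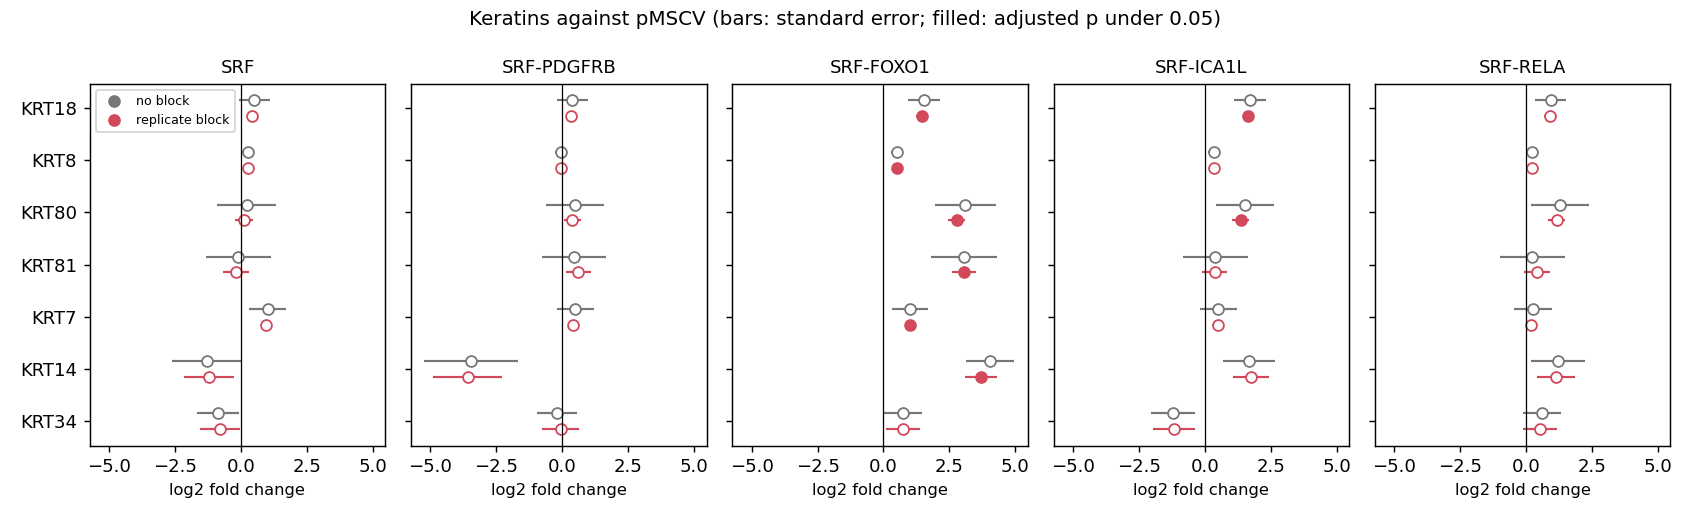
Log2 fold change against pMSCV of the 7 tested keratins other than KRT17, in each construct, from the edgeR fit without (grey) and with (red) the replicate number as a block. Bars are standard errors and filled points have an adjusted p under 0.05. In SRF-FOXO1 6 of 7 points are filled with the block and 0 without it.

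KRT18, the type I chain of simple epithelia (chr12:52948871-52952901), was the most abundant keratin per kb of exon, at 13.3 CPM per kb in pMSCV and 40.1 in SRF-ICA1L. The pMSCV libraries held 24.3, 50.8 and 53.2 CPM. Those of SRF-FOXO1 held 55.9, 172 and 117 CPM. Those of SRF-ICA1L held 63.4, 191 and 133 CPM. Both groups lie wholly above pMSCV, though replicate 1 of each is close to it, and SRF-ICA1L was the highest of the 6 groups within each replicate number. SRF-RELA (41.8, 114 and 78.0 CPM), SRF (24.3, 60.7 and 93.2) and SRF-PDGFRB (27.9, 69.3 and 71.3) overlap pMSCV. Without the block, KRT18 in SRF-FOXO1 exceeded pMSCV by 1.54 on the log2 scale (edgeR adjusted p 0.247, SE 0.60) and in SRF-ICA1L by 1.73 (edgeR adjusted p 0.286, SE 0.60), neither of them called. With the block both were called, at 1.45 (edgeR adjusted p 0.000857, SE 0.21) and 1.65 (edgeR adjusted p 0.000416, SE 0.21). The value for SRF-RELA, 0.89 (edgeR adjusted p 0.0571, SE 0.21), was not.

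KRT8, the type II partner of KRT18 (chr12:52897187-52949954), varied little. Its 18 libraries ranged from 24.3 to 52.3 CPM, with group means from 32.5 ± 7.25 CPM in SRF-PDGFRB to 45.3 ± 7.77 CPM in SRF-FOXO1, and all groups overlapped. In SRF-FOXO1 against pMSCV it was called only with the block, at 0.52 on the log2 scale (SE 0.11, edgeR adjusted p 0.0121). The value without the block was also 0.52 (SE 0.22, edgeR adjusted p 0.280). In SRF-ICA1L the value with the block was 0.35 (SE 0.11, edgeR adjusted p 0.0901).

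The 2 chains of this pair stood in another proportion where KRT18 was high. The ratio of KRT18 CPM to KRT8 CPM, not corrected for length and used only to compare libraries, was 0.911, 1.39 and 1.41 in pMSCV. It was 1.51, 3.29 and 2.51 in SRF-FOXO1. It was 1.83, 4.68 and 3.11 in SRF-ICA1L, where each library was above each of pMSCV. The ratios of SRF-RELA were 1.26, 3.01 and 1.90, those of SRF-PDGFRB 1.15, 1.82 and 2.03, and those of SRF 0.911, 1.39 and 1.87. Replicate 1 had the lowest ratio in each group.

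**Figure D3:**
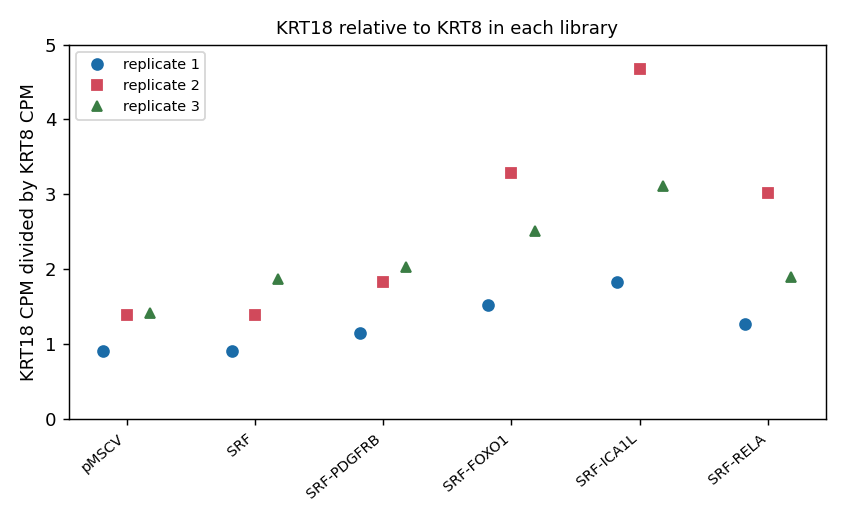
KRT18 CPM divided by KRT8 CPM in each of the 18 libraries, by group, with the replicate number as the symbol. The 3 libraries of SRF-ICA1L (1.83 to 4.68) and of SRF-FOXO1 (1.51 to 3.29) lie above the 3 of pMSCV (0.911 to 1.41).

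KRT7, a further type II chain of simple epithelia (chr12:52232520-52252186), held 0.566, 1.81 and 1.63 CPM in pMSCV. SRF held 0.890, 3.37 and 3.61 CPM. SRF-FOXO1 held 1.17, 3.64 and 2.68 CPM. The groups overlap, and each library of SRF and of SRF-FOXO1 was above the pMSCV library of its number. The log2 fold change was 1.01 in both, and with the block it was called in SRF-FOXO1 (1.02, SE 0.21, edgeR adjusted p 0.00882) but not in SRF (0.97, SE 0.21, edgeR adjusted p 0.0750). KRT19, their type I relative (chr17:41523617-41528308), had 0 to 7 counts per library in all groups (at most 0.268 CPM), too few to compare.

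KRT80, a type II chain (chr12:52168996-52192000), was among the genes with the widest range. The pMSCV libraries held 1.03, 4.99 and 2.53 CPM. Those of SRF-FOXO1 held 2.82, 44.6 and 19.5 CPM, and within each replicate number this was the highest of the 6 groups. SRF-ICA1L held 1.19, 11.5 and 9.56 CPM. SRF-RELA held 1.55, 11.7 and 6.18 CPM. Groups overlap because replicate 1 was low in each. Without the block SRF-FOXO1 exceeded pMSCV by 3.11 on the log2 scale, not called (edgeR adjusted p 0.223, SE 1.15), and by 2.02 when SRF-FOXO1 replicate 2 was left out. With it KRT80 was called higher in SRF-FOXO1 (2.78, SE 0.32, edgeR adjusted p 0.000139) and in SRF-ICA1L (1.36, SE 0.32, edgeR adjusted p 0.0239), and in SRF-RELA it was at 1.16 (SE 0.32, edgeR adjusted p 0.153).

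KRT81, a type II hair keratin (chr12:52285913-52291534), stood out in the libraries labelled SRF-FOXO1. There it was at 4.16, 35.2 and 7.77 CPM. In pMSCV it was at 0.248, 4.21 and 1.84 CPM, in SRF-ICA1L at 0.119, 4.34 and 2.92 CPM, and in SRF-RELA at 0.977, 4.14 and 1.71 CPM. SRF-FOXO1 was the highest group within each replicate number, and its lowest library overlaps the highest of pMSCV. With the block KRT81 was called higher than in pMSCV, by 3.06 on the log2 scale (edgeR adjusted p 0.00138, SE 0.46). Without it the value was also 3.06 but not called (edgeR adjusted p 0.269, SE 1.25), and without SRF-FOXO1 replicate 2 it was 1.56. The hair keratin KRT86, its near copy, has a coding sequence 93.3% identical, and 38.4% of the 50-base stretches of KRT81 also occur in it. A 75-base window of exon 1 shows the limit, since it holds the same bases in both genes.
KRT81 (chr12:52291331-52291405, minus strand): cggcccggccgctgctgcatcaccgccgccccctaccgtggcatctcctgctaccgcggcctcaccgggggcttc
KRT86 (chr12:52301977-52302051, plus strand): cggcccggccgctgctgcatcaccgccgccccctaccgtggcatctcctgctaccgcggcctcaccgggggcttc
KRT86 held 0.470, 5.60 and 2.04 CPM in SRF-FOXO1 and 0.0354, 0.946 and 0.485 CPM in pMSCV. With the block it was called higher too (2.54, SE 0.37, edgeR adjusted p 0.000963). Reads of these 2 genes can be split between them, so the value of each is uncertain.

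KRT14, the type I chain of basal skin cells, was scarce, and its mean was highest in SRF-FOXO1. It had 9 or fewer counts per library in pMSCV, SRF and SRF-PDGFRB, with 0.106, 0.387 and 0.104 CPM in pMSCV. SRF held 0.111, 0 and 0.104 CPM, and SRF-PDGFRB held 0, 0.0343 and 0 CPM. SRF-FOXO1 held 0.537, 6.89 and 1.39 CPM, all above those 9 libraries. SRF-ICA1L (0.317, 0.799 and 0.584 CPM) and SRF-RELA (0.267, 0.771 and 0.209 CPM) overlap pMSCV, and they also overlap SRF-FOXO1 through its replicate 1. Summed over 3 libraries SRF-FOXO1 had 222 counts and pMSCV 15, a ratio of 15.5 after scaling to total counts (95% counting interval 9.17 to 28.1). Replicate 2 gave 176 of the 222 counts, and within the replicate numbers the ratio was 5.05, 17.8 and 13.4. Against SRF-PDGFRB, with 1 count, the ratio was 223 (39.6 to 8836).

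KRT14 was also the one of the 7 tested keratins of the set that was called in any comparison without the block. It entered the test almost only through the fusions with high KRT17, since its counts in pMSCV, SRF and SRF-PDGFRB were as low as given above. Its calls are therefore no support, and they are given as a description. The difference from pMSCV in SRF-FOXO1 measured 4.04 on the log2 scale (SE 0.92) and missed the threshold, at an edgeR adjusted p of 0.0526, and with the block 3.70 (SE 0.60, edgeR adjusted p 0.00219). Without SRF-FOXO1 replicate 2 it was 2.31 in the fit without the block (edgeR adjusted p 0.275), and without SRF-FOXO1 replicate 1 or 3 it was called (edgeR adjusted p 0.00699 and 0.0471). Against SRF it was called higher in SRF-FOXO1 (5.34, SE 1.05, edgeR adjusted p 0.0204), as 1 of 7 keratins beside 1.15% of all genes called higher. Without SRF replicate 1, SRF replicate 2 or SRF-FOXO1 replicate 2 in turn, that call was lost (edgeR adjusted p 0.0989, 0.111 and 0.0944). Against SRF-PDGFRB it was called higher in SRF-FOXO1 (edgeR adjusted p 0.0162), beside 0.566% of all genes, and without each of the 3 SRF-PDGFRB libraries in turn the adjusted p was 0.0969, 0.106 and 0.0965.

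KRT16, a type I chain of stressed skin, had no count in any of the 9 libraries of pMSCV, SRF and SRF-PDGFRB. It had 3, 29 and 1 counts in SRF-FOXO1 (0.101, 1.14 and 0.0463 CPM). It had 0, 4 and 2 counts in SRF-ICA1L and 0, 6 and 1 in SRF-RELA. The SRF-FOXO1 mean was at least 3.78-fold higher than 3 counts per library of pMSCV would give, and 29 of its 33 counts came from replicate 2. No fold is given for the other 2, whose means are below that limit. The groups in which KRT16 was detected are those with high KRT17.

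KRT34, a type I hair keratin (chr17:41377650-41382403), had 2 to 25 counts per library (0.0792 to 1.04 CPM) with overlapping groups, and it was called in none of the 15 comparisons in either fit. Its value in SRF-FOXO1 over pMSCV, on the log2 scale, was 0.75 (SE 0.71, edgeR adjusted p 0.645).

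**Figure D4:**
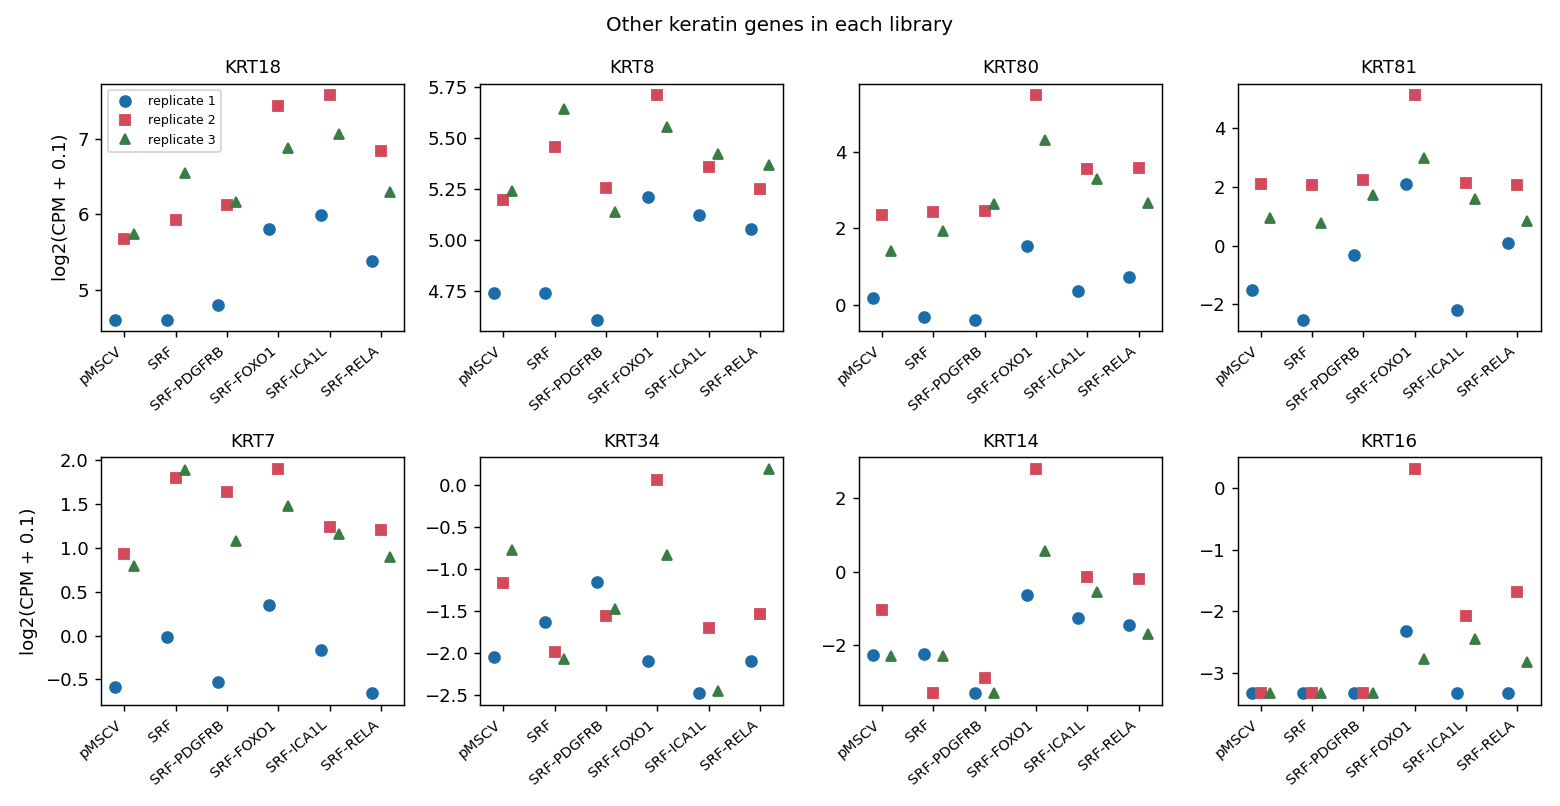
Levels of 8 keratins other than KRT17 as log2(CPM + 0.1) in each library, by group, with the replicate number as the symbol and a vertical scale of its own for each gene. Replicate 1 is the lowest library of each group for KRT18, KRT8, KRT80, KRT81 and KRT7, and the SRF-FOXO1 libraries are the highest of their number for KRT80, KRT81 and KRT14. The lowest points of KRT14 and KRT16 are libraries with no count.

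The fusions were then set against each other and against SRF, which carries the transcription factor without a partner. Against SRF, without the block, 0 of 7 keratins were called in SRF-ICA1L, SRF-RELA and SRF-PDGFRB, where 0.782%, 0.388% and 0.146% of all genes were called. At an unadjusted edgeR p under 0.05 there were 1, 1 and 0 of 7, and DESeq2 called 0 in each. With the block 0 of 7 were called in SRF-RELA and SRF-PDGFRB beside 1.73% and 2.34% of all genes, with 4 and 2 at an unadjusted edgeR p under 0.05. With it 2 of 7 were called higher in SRF-ICA1L beside 3.16% of all genes: KRT18 by 1.22 (SE 0.21, edgeR adjusted p 0.00332) and KRT80 by 1.24 (SE 0.31, edgeR adjusted p 0.0343).

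Between fusions with high KRT17, KRT80 and KRT81 were the ones of the 7 keratins that were called, and only in the fit with the block. In SRF-FOXO1 against SRF-ICA1L, KRT80 was higher by 1.42 (SE 0.29, edgeR adjusted p 0.0308) and KRT81 by 2.69 (SE 0.45, edgeR adjusted p 0.00989), 2 of 7 keratins beside 0.469% of all genes called higher. In SRF-FOXO1 against SRF-RELA they were higher by 1.62 (SE 0.29, edgeR adjusted p 0.0410) and 2.66 (SE 0.46, edgeR adjusted p 0.0354), beside 0.108% of all genes. Each of these 4 differences had its sign in 3 of 3 pairs of libraries with one number. In the fit without the block, their size depended on SRF-FOXO1 replicate 2. Leaving it out there gave 0.497 (SRF-ICA1L) and 0.739 (SRF-RELA) for KRT80, and 1.17 and 1.34 for KRT81. Such a fit also removes the shared deviation of replicate 2 from that group alone. Within replicates 1, 2 and 3 the KRT80 ratio was 2.37, 3.88 and 2.04 to SRF-ICA1L, and 1.81, 3.81 and 3.15 to SRF-RELA. For KRT81 these ratios were 35.0, 8.10 and 2.66 to SRF-ICA1L, and 4.26, 8.50 and 4.54 to SRF-RELA. Without the block 0 of 7 were called in these comparisons, in which 3 and 2 had an unadjusted edgeR p under 0.05 and 0.027% and 0.00539% of all genes were called, and DESeq2 called 0. The KRT18 difference between SRF-FOXO1 and SRF-ICA1L was -0.20 with the block (interval -0.59 to 0.19, edgeR adjusted p 0.764). In SRF-ICA1L against SRF-RELA 0 of 7 were called without or with the block, beside 0.0108% and 0.0162% of all genes, with 1 and 2 at an unadjusted edgeR p under 0.05 and 0 called by DESeq2.

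SRF-PDGFRB, the fusion without high KRT17, was below SRF-FOXO1 and SRF-ICA1L, but not SRF-RELA, by calls for several keratins in the fit with the block. Against it, 5 of 7 keratins were called higher in SRF-FOXO1 (KRT8, KRT14, KRT18, KRT80 and KRT81) beside 2.87% of all genes. In SRF-ICA1L 3 of 7 were called higher (KRT8, KRT14 and KRT18) beside 3.01%. The KRT14 calls among these are no support, since KRT14 entered the test almost only through the fusions with high KRT17. KRT18 was higher by 1.11 (SE 0.20, edgeR adjusted p 0.00741) in SRF-FOXO1 and by 1.31 (SE 0.21, edgeR adjusted p 0.00213) in SRF-ICA1L. Without the block only KRT14 in SRF-FOXO1 was called in these comparisons. In SRF-ICA1L that left 0 of 7 called beside 0.82% of all genes, with 2 at an unadjusted edgeR p under 0.05 and 1 (KRT14) called by DESeq2. Against SRF-RELA 0 of 7 were called in SRF-PDGFRB without or with the block, beside 0.162% and 0.847% of all genes, with 1 and 4 at an unadjusted edgeR p under 0.05 and 0 called by DESeq2.

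Of the 45 other keratin genes in the table, 39 stayed under 10 counts in every library (18 of them with no count at all), which left 6 tested. The type II chains that usually pair with KRT14, KRT16 and KRT17 were among the undetected: KRT5 and KRT6C had no count, and KRT6A and KRT6B had 1 count each in all 18 libraries together. KRT10, a type I chain of upper skin layers, was the most abundant of them, with 24.7 ± 1.71 CPM in pMSCV against 33.2 ± 4.46 in SRF-FOXO1. KRT15, another type I chain of basal cells, had 1.58 ± 0.703 CPM in pMSCV against 3.88 ± 0.770 in SRF-FOXO1. With the block both were called higher there, KRT10 by 0.50 (SE 0.13, edgeR adjusted p 0.0330) and KRT15 by 1.47 (SE 0.35, edgeR adjusted p 0.0214), and without it neither was. With KRT86 that made 3 of 6 called higher with the block, beside 4.65% of all genes. KRT79, a type II chain, was at means from 2.27 CPM in pMSCV to 4.31 CPM in SRF and was not called in a construct against pMSCV.

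KRT12, the type I keratin of the cornea, had another pattern than KRT17. It held 1.23, 2.74 and 2.05 CPM in SRF-ICA1L. It held 0.755, 4.07 and 1.75 CPM in SRF-RELA. In SRF-FOXO1 it held 0.0671, 0.352 and 0.0463 CPM, and in pMSCV 0.0354, 0.0430 and 0 CPM. Summed over 3 libraries it had 159 counts in SRF-ICA1L, 175 in SRF-RELA and 12 in SRF-FOXO1, with 2 in pMSCV, 2 in SRF and 3 in SRF-PDGFRB. The ratios to pMSCV were 81.9 (95% counting interval 22.3 to 682) in SRF-ICA1L and 93.8 (25.6 to 781) in SRF-RELA. KRT12 passed the filter on low counts only through these 2 groups, so it is given as levels with no test.

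**Figure D5:**
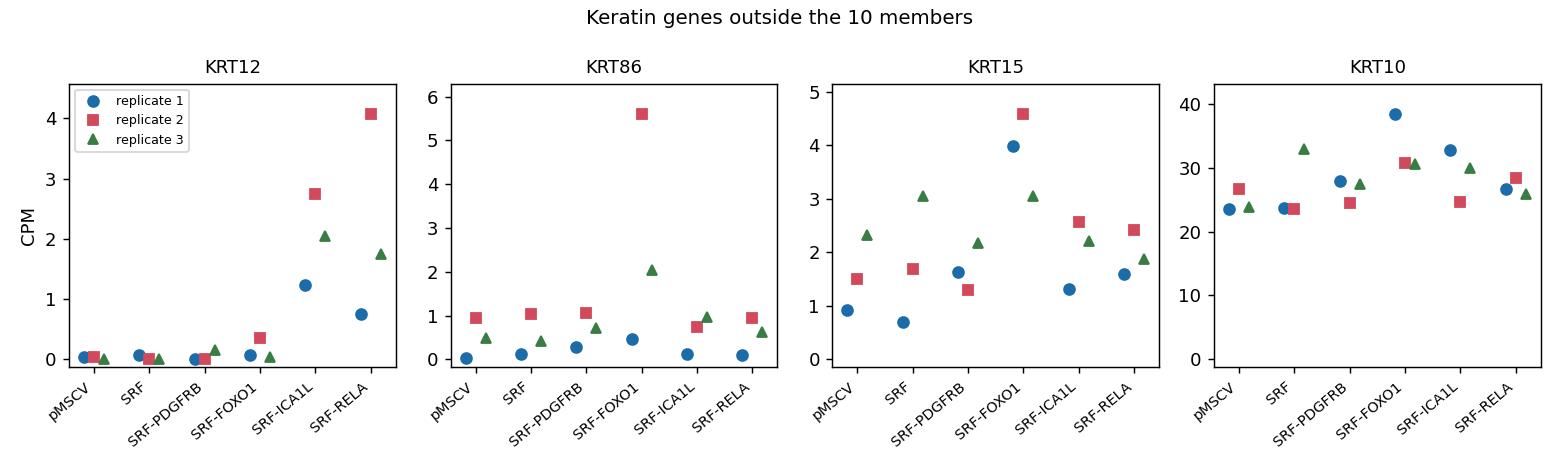
CPM of KRT12, KRT86, KRT15 and KRT10 in each library on linear axes of their own, by group, with the replicate number as the symbol. KRT12 reaches 0.755 to 4.07 CPM in SRF-ICA1L and SRF-RELA and 0.352 CPM at most in the other 4 groups, while KRT86 has its highest library, 5.60 CPM, in SRF-FOXO1.

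The genes whose levels followed KRT17 most closely over the 18 libraries, by Pearson's r of log2(CPM + 1) among 14201 genes, were RPE65 (0.983), NRXN3 (0.980), CSRP1 (0.968), CDH3 (0.957) and AMZ1 (0.955). The r values are a description over libraries that fall into 9 with low and 9 with high KRT17. RPE65, an enzyme of the visual cycle, had no count in pMSCV and means of 8.26 CPM (SRF-FOXO1), 5.40 CPM (SRF-ICA1L) and 6.25 CPM (SRF-RELA). CDH3, the adhesion molecule P-cadherin, likewise had no count in pMSCV and means of 11.8, 28.4 and 29.5 CPM in these groups. CSRP1, a LIM-domain protein of the actin cytoskeleton, went from 198 ± 34.4 CPM in pMSCV to 585 ± 233, 655 ± 165 and 543 ± 223 CPM. Among the keratins the r with KRT17 was 0.76 for KRT18, 0.71 for KRT14, 0.66 for KRT80, 0.47 for KRT8 and for KRT81, 0.24 for KRT34 and 0.23 for KRT7. KRT80 and KRT81 were closer to each other (0.91) than to KRT17.

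Genes around the keratin filament gave few calls without the block, where 0.027% (SRF) to 0.928% (SRF-FOXO1) of all tested genes were called against pMSCV. Of 18 desmosome and plakin genes, which anchor keratins at cell contacts, 13 were tested, and 1 was called against pMSCV: DSP (desmoplakin) rose in SRF-ICA1L, with 74.8, 180 and 105 CPM against 25.3, 13.4 and 8.73 CPM (3.04, SE 0.62, edgeR adjusted p 0.0469). That call was lost without each of the 3 pMSCV libraries and without SRF-ICA1L replicate 2 or 3 (edgeR adjusted p 0.0823 to 0.228). DSP was not called against pMSCV in SRF-RELA or SRF-FOXO1. Its summed counts, scaled to total counts, were 4.48 and 2.67 times those of pMSCV there, beside 7.73 in SRF-ICA1L and 0.776 in SRF-PDGFRB. With the block 4 of 13 were called higher in SRF-FOXO1 (PKP1, PKP2, JUP and DSG3) beside 4.65% of all genes, and 3 in SRF-ICA1L (DSP, PKP2 and JUP) beside 3.26%. DESeq2, without the block, called 2 of 13 in each. The plakophilin PKP1 held 0.268, 6.77 and 0.463 CPM in SRF-FOXO1. Its summed counts, most of them from replicate 2, were 99.7 times those of pMSCV (95% counting interval 27.2 to 829.5, from 191 and 2 counts). PKP1 had 33 counts in SRF-RELA and at most 8 in each of pMSCV, SRF, SRF-PDGFRB and SRF-ICA1L. It thus passed the filter on low counts only through SRF-FOXO1 and SRF-RELA. Its call among the 4 is therefore no support, and its levels are a description. PKP2 summed to 12 counts in pMSCV, 8 in SRF and 16 in SRF-PDGFRB, against 107 in SRF-FOXO1 and 96 in SRF-ICA1L. DSG3 summed to 5 counts in pMSCV, 16 in SRF and 1 in SRF-PDGFRB, against 101 in SRF-FOXO1. PKP2 and DSG3 thus passed the filter mainly through fusions, and their calls are no support either.

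Of 13 other intermediate filament genes 7 were tested, and NES (nestin) was the one called against pMSCV without the block. The call was in SRF-RELA (38.2 ± 2.30 against 17.2 ± 0.664 CPM, log2 fold change 1.21, SE 0.22, edgeR adjusted p 0.0344), beside 0.183% of all genes. That call was lost whichever of the 6 libraries was left out (edgeR adjusted p 0.0594 to 0.225). Against SRF (11.97 ± 3.79 CPM) NES rose by 1.42 (SRF-FOXO1), 1.31 (SRF-ICA1L) and 1.69 (SRF-RELA), at edgeR adjusted p 0.00654, 0.00882 and 0.00323, and those calls were kept in all 6 fits without 1 library. With the block NES was also called higher in SRF-FOXO1 (0.95, SE 0.20, edgeR adjusted p 0.00979) and SRF-ICA1L (0.82, SE 0.20, edgeR adjusted p 0.0268), and SYNM (synemin) in SRF-FOXO1. Beside these, 4.65% of all genes were called higher in SRF-FOXO1 and 3.26% in SRF-ICA1L. NES was likewise called above the SRF level for SRF-PDGFRB, but only with the block. The rise over SRF was thus not confined to the fusions with high KRT17, and the SRF mean lay below that of pMSCV. Of 27 regulators of keratin genes 19 were tested, and 1 was called against pMSCV without the block, beside 0.928% of all genes in SRF-FOXO1. It was KLF5, a factor of epithelial proliferation, at 39.2 ± 15.8 CPM in SRF-FOXO1 against 19.4 ± 1.35 (1.12, SE 0.24, edgeR adjusted p 0.0402). That call was lost without each of the pMSCV libraries and without SRF-FOXO1 replicate 2 (edgeR adjusted p 0.108 to 0.221). With the block SOX9 was called higher there too, and FOSL1 was called lower in SRF-ICA1L and SRF-RELA. The blocked share of all genes called higher in SRF-FOXO1 was 4.65%. TP63, the master factor of basal skin cells, was at means from 1.34 to 2.62 CPM in the 6 groups.

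Among 7 hemidesmosome and laminin-332 genes, all tested, 0 were called against pMSCV without the block, beside at most 0.928% of all genes (SRF-FOXO1). The lists below with 0 calls stand beside the same shares, so 0 is near the share of all genes. In SRF-FOXO1 2 of these 7 genes had an unadjusted edgeR p under 0.05 and DESeq2 called 0. With the block ITGA6 (integrin alpha 6) was called higher there, by 0.73 (SE 0.13, edgeR adjusted p 0.00488), as 1 of 7 beside 4.65% of all genes. Of 12 keratin partners and turnover genes 8 were tested and 0 were called without the block, with 2 at an unadjusted edgeR p under 0.05 in SRF-FOXO1 and 0 called by DESeq2. With the block KLHL24, a ubiquitin ligase adaptor for keratins, was called lower in SRF-FOXO1 (53.9 ± 14.0 CPM against 97.5 ± 20.3). The share of all genes called lower there is not given. Of 94 keratin-associated protein genes of hair 3 were tested, and 0 were called in a construct against pMSCV by edgeR or DESeq2, with 2 at an unadjusted edgeR p under 0.05 in SRF. Of 153 keratin pseudogenes and antisense genes 9 were tested and 0 were called without the block, with 1 at an unadjusted edgeR p under 0.05 in SRF-FOXO1 and 0 called by DESeq2. With the block 1 of 9 was called higher in SRF-FOXO1, beside 4.65% of all genes. It was the hair keratin pseudogene KRT87P (2.32, SE 0.65, edgeR adjusted p 0.0441), in which 9.04% of the 50-base stretches of KRT81 also occur. It had 3, 42 and 6 counts there and 1, 3 and 6 in pMSCV.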

How the data were processed

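The mRNA of 18 MSC-hTERT libraries was sequenced with a TruSeq stranded kit on a NovaSeq 6000, per the labels' protocols. The authors deposited raw read counts per gene, and the submitters' processing notes name FastQC 0.11.8, Trimmomatic 0.39, HISAT2 2.12.1, featureCounts, Subread 2.0.3 and GRCh38. The annotation release, the strand setting and the handling of reads with several matches are not given in the sources used here. Symbols came from a table of gene names (61369 of 61487 identifiers) and GENCODE release 29 (105), and 13 had none. Coordinates, exon lengths and sequences came from the GRCh38 genome with GENCODE release 29.

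CPM were computed from total counts. Tests used edgeR 4.0.16 (R 4.3.3): quasi-likelihood F test, robust, TMM scaling, filterByExpr with a minimum count of 10, all 18 libraries (12 residual degrees of freedom), 18544 genes, Benjamini-Hochberg adjustment over all of them and a threshold of 0.05. Intervals of log2 differences are about 95%, from the SE, and those of count ratios are exact binomial. The steps were tested on simulated data. The members and gene lists were chosen with earlier results of these data known. Named genes were those of each list called against pMSCV or SRF, other keratins at 1 CPM or more in a group, and the 5 genes most like KRT17; genes called only with the block were named after their values were seen.

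Libraries with one replicate number deviated together from their group means: the correlation was above 0.1 in 44 of 45 pairs (median 0.375, against -0.18 over 90 pairs with different numbers). The exception, 0.0875, was between replicate 1 of SRF and of SRF-FOXO1, so the blocked value of that comparison is given only under the alternatives. The labels do not say what a number marks. Alternatives were DESeq2 1.42.0, other scalings and filters, only the compared groups, a minimum fold, the block, and leaving out each library.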

Additional observations from a re-analysis of the deposited data

How the results depend on the processing

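The number of tested keratins other than KRT17 that were called depended on the replicate block. With it the count was 6 for SRF-FOXO1 and 2 for SRF-ICA1L against pMSCV, 4 for SRF-FOXO1 and 2 for SRF-ICA1L against SRF, 2 for SRF-FOXO1 against SRF-ICA1L, 2 against SRF-RELA and 5 against SRF-PDGFRB, and 3 for SRF-ICA1L against SRF-PDGFRB. In SRF-FOXO1 against SRF, where 1 of the 3 same-number pairs was under the limit for pairing, the 4 were KRT14 (4.89), KRT18 (1.02), KRT80 (2.65) and KRT81 (3.23), beside 4.91% of all genes called higher. The DESeq2 Wald test called 1 in SRF-FOXO1 against pMSCV and 1 in SRF-ICA1L against SRF-PDGFRB. With no count filter, with 10 counts in every library or with only the 2 compared groups, 0 were called in SRF-FOXO1 against SRF and 0 against SRF-PDGFRB. Leaving out 1 library gave 0 to 1 in SRF-FOXO1 against pMSCV, SRF and SRF-PDGFRB. The KRT17 difference ranged from -1.21 to 0.789 between SRF-FOXO1 and SRF-ICA1L, from -1.17 to 1.33 between SRF-FOXO1 and SRF-RELA, and from -0.881 to 1.46 between SRF-ICA1L and SRF-RELA. Scaling by total counts turned the last of these to -0.0195, and it moved the median of all genes by -0.11 in SRF-ICA1L against pMSCV and by -0.114 against SRF-PDGFRB. The cause of these changes was not tested, beyond the fewer genes or libraries that some alternatives use. Counts of 3 or fewer per library limit what can be said of KRT14 in SRF and SRF-PDGFRB, and KRT16 and KRT19 were too low to test. Where KRT14 is among the calls counted here, its call is no support, for the reason given above.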
